A study of Mus musculus with 4 samples.

Results

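The genes for the proteins of the cytosolic ribosome were followed across 4 Affymetrix arrays of mouse intestinal organoids, epithelial cultures grown in a gel. Members were the symbols that begin with Rpl or Rps and a number, the Rplp stalk genes and Rpsa, without the Rps6k kinases and Rps27l. The rule looked at names only and found 50 of the 18193 genes measured by a probe set that the platform annotation gives to a single symbol. Of these, 43 encode core ribosomal proteins. The other 7 are the paralogs Rpl3l, Rpl7l1, Rpl22l1, Rpl39l and Rps4l, the pseudogene Rps15a-ps6, and Rps19bp1, whose product binds the protein of Rps19. Each gene was read from its probe set with the highest mean, and 46 members reached the filter on dim genes, an intensity of 16.9, which 11392 genes passed.

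The arrays were 1 each of Tacc3wt/wt and Tacc3fl/fl organoids at day 4 and day 6. All cultures, the wt/wt controls included, had received 4OHT (4-hydroxytamoxifen) for 24 hours, and the design text counts the days from that treatment and names Apc and Tacc3 as the genes to be recombined. The sample descriptions, in contrast, call both day 4 cultures normal and both day 6 cultures Apc-deficient, so that day and Apc state cannot be told apart by the labels. The labels give neither the Cre driver nor the number of mice or cultures behind an array. Each group is a single array, so that differences could not be checked against replicates, and counts of genes past a fold are descriptions of size.

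A ribosome is built from ribosomal RNA and one copy of most of its proteins, which assemble in the nucleolus into a large and a small subunit. Messenger RNAs of ribosomal proteins commonly begin with a short run of pyrimidines, the terminal oligopyrimidine or TOP tract, through which mTORC1 and Larp1 control their translation and stability. In the intestinal crypt, dividing stem and progenitor cells depend on high ribosome output, and MYC, a target of Wnt signalling, promotes transcription of ribosomal genes.

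Annotated starts of the 6 members with the highest and the 6 with the lowest mean day difference below were searched for such a run. Rpl38 follows them, which hardly differed between the days and was chosen after its values were seen. The 30-base windows come from RefSeq annotation of GRCm38.p6, with 15 bases before the annotated start and 15 from it, 5′ to 3′ on the strand of the gene. Capitals mark a C followed by at least 4 pyrimidines that begins within 5 bases of the annotated start.
Rps9 at chr7:3704026-3704055, plus strand: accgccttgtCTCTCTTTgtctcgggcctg
Rpl12 at chr2:32961697-32961726, plus strand: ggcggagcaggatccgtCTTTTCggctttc
Rps26 at chr10:128626492-128626521, minus strand: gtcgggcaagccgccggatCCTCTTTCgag
Rps3a1 at chr3:86142654-86142683, minus strand: ttaaagccggaagggcgaaagagcaagggt
Rpl22l1 at chr3:28805493-28805522, plus strand: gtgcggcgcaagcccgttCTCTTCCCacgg
Rpl7a at chr2:26910792-26910821, plus strand: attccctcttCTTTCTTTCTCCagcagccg
Rpl27a at chr7:109519180-109519209, plus strand: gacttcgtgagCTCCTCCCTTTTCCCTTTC
Rps19bp1 at chr15:80264292-80264321, minus strand: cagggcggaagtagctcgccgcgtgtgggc
Rps15 at chr10:80292416-80292445, plus strand: cccggcagagctcgcgataactgcgcaagc
Rpl7l1 at chr17:46782642-46782671, minus strand: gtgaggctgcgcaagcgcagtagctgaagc
Rps6 at chr4:86857353-86857382, minus strand: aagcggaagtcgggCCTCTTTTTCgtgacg
Rpl13a at chr7:45128731-45128760, minus strand: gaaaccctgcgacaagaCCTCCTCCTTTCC
Rpl38 at chr11:114668565-114668594, plus strand: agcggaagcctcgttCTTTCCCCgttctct

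A marked run stood near the annotated start of genes on both sides of the day comparison. Of these genes, Rps9, Rps26, Rpl12, Rpl7a and the paralog Rpl22l1 had higher intensities at day 6, Rpl27a, Rps6 and Rpl13a lower ones, and Rpl38 nearly equal ones. Windows without the run were likewise on both sides, that of Rps3a1 among the higher and those of Rps15, Rps19bp1 and Rpl7l1 among the lower. The starts are annotated ones and were not checked against measured transcript starts. A window without the run therefore does not show that the mRNA lacks a TOP tract. Of 44 start windows of 38 core members, 19 (43.2%) held such a run within 5 bases, against 18.3% of 32851 windows of 27025 genes. Exactly at the annotated start it was found in 8 (18.2%), against 2.51% of all windows. Among core members above the filter, the 18 with a run had median day differences of 0.24 (wt/wt) and 0.35 (fl/fl), and the 19 without one had 0.54 and 0.36. These differences, like all day differences that follow, are day 6 minus day 4. All differences are on the scale log2(intensity + 16), which understates the change of dim genes.

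The 300-base promoter windows, 250 before the start and 50 after it, were also searched on both strands for 4 motifs whose matches can overlap. The letters CCGGAAG, a core of the binding sites of ETS factors and GABP, were in 19 of 44 windows (43.2%), against 8.86% of all windows. AAGATGGC, bound by YY1, was in 3 (6.82% against 2.75%). GGGCGG, bound by SP1, was in 24 (54.5% against 35.7%), and the TATA box letters TATAAA were in 5 (11.4% against 13.6%). The next lines show 100 bases around the start, 85 before it and 15 from it, with CCGGAAG in capitals, for a gene with a higher value at day 6 in both genotypes, Rps3a1, and one without a difference, Rpl38.
Rps3a1 at chr3:86142654-86142753, minus strand: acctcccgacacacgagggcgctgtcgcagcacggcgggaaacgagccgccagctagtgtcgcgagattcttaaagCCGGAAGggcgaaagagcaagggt
Rpl38 at chr11:114668495-114668594, plus strand: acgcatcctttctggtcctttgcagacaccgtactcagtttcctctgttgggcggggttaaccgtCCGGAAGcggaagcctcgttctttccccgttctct
A match describes letters in these windows and not binding.

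The array facts that touch the members are few. Array median intensities ran from 15.4 to 17.7 and 95th percentiles from 303 to 439, so the arrays did not share 1 distribution. The ratio of the 5′ to the 3′ control probe set of Actb, a sign of RNA length and labelling, stood at 0.0610 (wt/wt) and 0.0627 (fl/fl) on day 4 and 0.180 and 0.261 at day 6, and that of Gapdh was 0.208, 0.142, 0.411 and 0.524 in the same order. The ratios thus moved with the day, and their part in the day differences was not tested. Tacc3 read 184 (wt/wt) and 59.8 (fl/fl) at day 4, and 167 and 49.7 at day 6, lower in fl/fl at both days. Apc read 27.9 and 53.5 at day 4 and 122 and 149.6 at day 6, not lower at the day whose cultures the descriptions call deficient. Where the probe sets of these genes lie relative to the recombined parts was not analysed here. All 12 epithelial markers passed the filter, with summed intensities of 30465 and 41187 at day 4 (wt/wt, fl/fl) and 40688 and 44624 at day 6, lowest in wt/wt at day 4. None of 5 endothelial markers passed it (sums of 39.7 to 63.2), nor did 6 of 8 mesenchymal markers (sums of 92.7 to 165 over all 8). Of 6 immune markers, Cd3e and Lyz2 passed, and Lyz2, which Paneth cells and other epithelium can also express, carried most of the sum of 1186 to 2912.

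The members' probe sets were among the brightest on the arrays: 33 of the 100 brightest genes were members, and 12 of the 20 brightest. Their summed intensity was 9.72% (wt/wt) and 9.09% (fl/fl) of the sum over all genes at day 4, and 9.62% and 9.84% at day 6. The summed share therefore differed by less than 1 percentage point between arrays. The median member level, on the log2 scale, was 12.1 and 12.3 at day 4 and 12.7 and 12.8 at day 6. Over all genes above the filter it was 6.38, 6.59, 6.77 and 6.80.

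**Figure D1:**
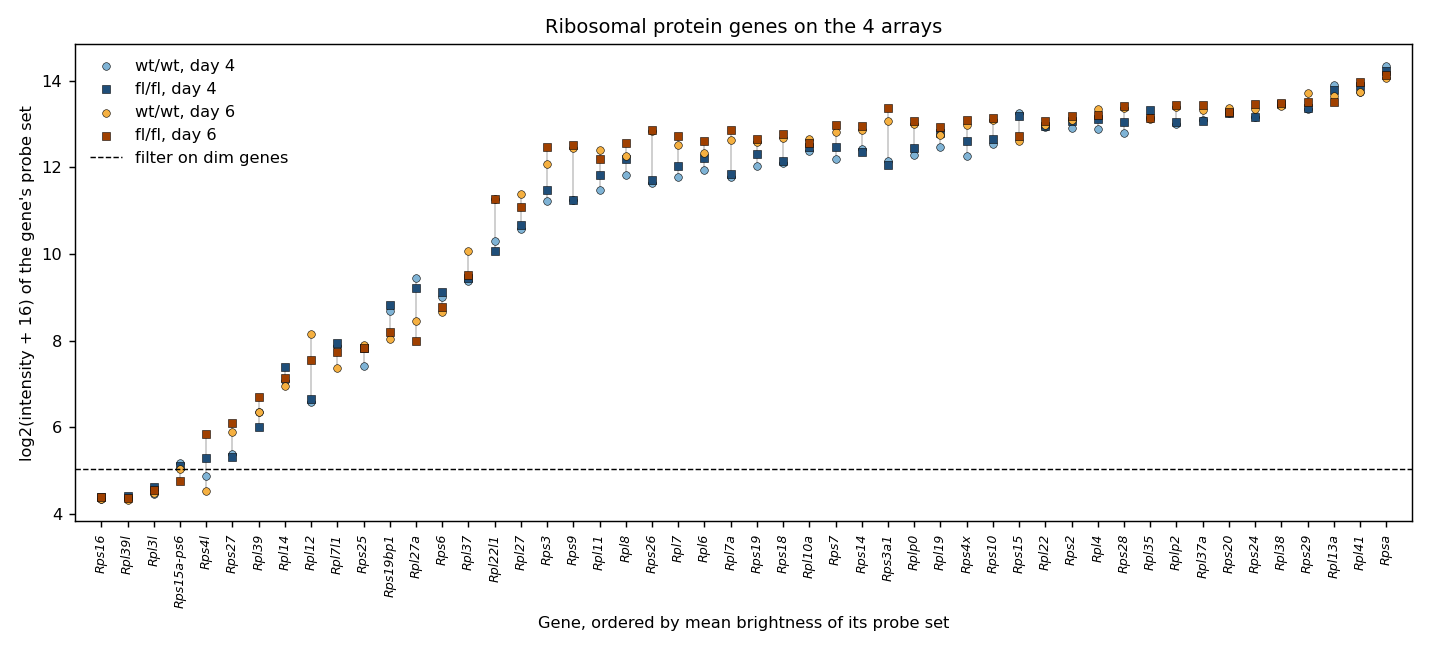
Level of each of the 50 members, as log2(intensity + 16), on the 4 arrays (1 point per array, no replicates), ordered by the mean brightness of the probe set, which depends on the probes and is no ranking of mRNA abundance. Brown and orange day 6 points lie above blue day 4 points for many genes in the middle of the range and close to them at the bright end, and 4 members lie below the dashed filter at 5.04.

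Between the days, most ribosomal protein genes had modestly higher values at day 6 in both genotypes, while few differed 2-fold. The median difference of the 46 members was 0.42 in wt/wt (interquartile range 0.70 wide) and 0.36 in fl/fl (0.56 wide). The medians over all genes above the filter were 0.17 (1.13 wide) and 0.00 (0.88 wide). Both day differences were above 0 for 34 members (73.9%), against 44.2% of all genes, and below 0 for 9 (19.6%), against 36.6%. In bulk cultures, a different share of cells of a type and a different amount of RNA per cell cannot be told apart. Quantile normalization moved the median of all genes to −0.13 (wt/wt) and −0.12 (fl/fl), and the members' to 0.18 and 0.20, with 27 members above 0 in both, against 33.8% of all genes. Relative to all genes, the members' median was 0.25 higher in wt/wt and 0.36 higher in fl/fl, and it stayed 0.22 to 0.46 and 0.31 to 0.40 higher under the other settings run.

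Differences of 2-fold were no more frequent among the members than among all genes. At 2-fold, 3 members were higher at day 6 in wt/wt (Rpl12, Rps26 and Rps9), where 18.3% of all genes were, and 5 in fl/fl (Rpl22l1, Rpl7a, Rps26, Rps3a1 and Rps9), against 12.2%. None was 2-fold lower in wt/wt (2.97% of all genes), and 1, Rpl27a, in fl/fl (2.9%). Only Rps26 and Rps9 were 2-fold higher in both genotypes, against 9.37% of all genes, and none was lower in both, against 1.35%. At 1.5-fold, 14 members were higher in wt/wt (30.4%, against 32.5% of all genes) and 3 lower (6.52%, against 13.1%). In fl/fl, 13 were higher (28.3%, against 24.2%) and 2 lower (4.35%, against 11.7%). The higher shares lay near those of all genes and the lower shares below them. Under quantile normalization 5 members were higher and 5 lower in wt/wt, against 20.9% and 26% of all genes, so that both shares then lay below those of all genes. In fl/fl 8 were higher and 4 lower, against 17.7% and 18.8%. With arrays centred on their medians, where all genes shift as well, 19 were higher and 1 lower in wt/wt (35.7% and 9.99% of all genes), and 14 and 1 in fl/fl (25.7% and 9.77%).

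The 9 members higher by 1.5-fold in both genotypes (19.6%, against 20.4% of all genes) were Rpl12, Rpl22l1, Rpl7, Rpl7a, Rplp0, Rps26, Rps3, Rps3a1 and Rps9. The 2 lower in both were Rpl27a and Rps19bp1, against 5.87% of all genes.

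**Figure D2:**
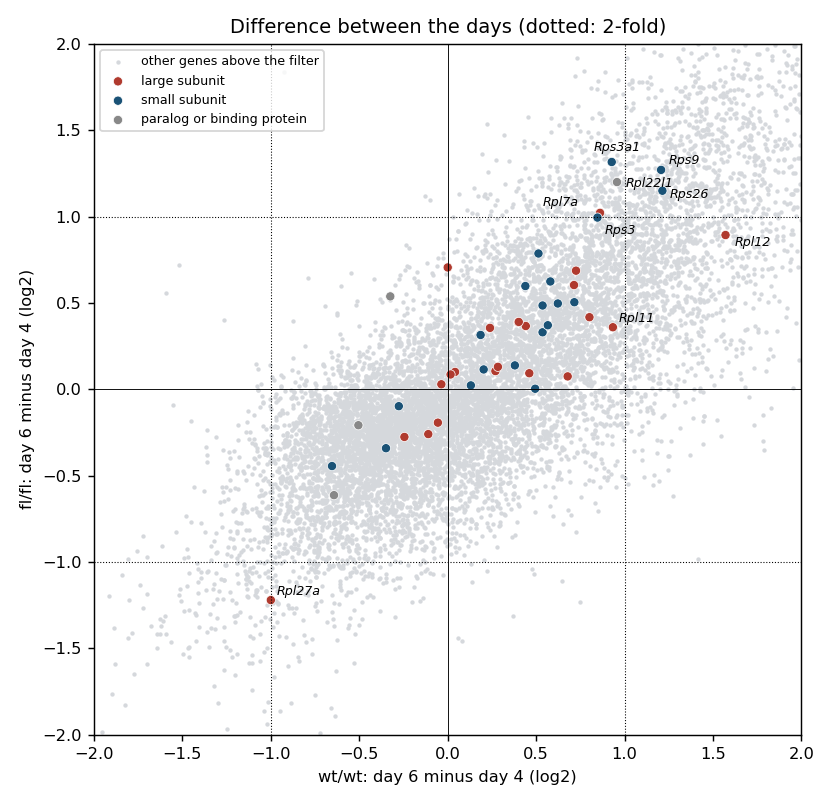
Day 6 minus day 4 on the log2(intensity + 16) scale in wt/wt (x axis) and fl/fl (y axis) for the 46 members above the filter and 11004 other genes, 1 point per gene from 1 array per group, with 342 genes outside the axes not drawn. Most members lie at the upper right, inside the dotted 2-fold lines, with Rps9 and Rps26 beyond both lines and Rpl27a at the lower left.

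Among small-subunit genes, the largest difference common to both genotypes was in Rps9, whose product sits near the entry of the mRNA channel. Its intensities were 2409 (wt/wt) and 2410 (fl/fl) at day 4 and 5580 and 5839 at day 6. On this probe set, its brightest, day 6 lay above day 4 by 1.21 (wt/wt) and 1.27 (fl/fl), and the genotypes were nearly equal within a day. On its other probe sets, 1 bright and 1 dim, fl/fl minus wt/wt was −0.15 and 0.28 at day 4. At day 6 it was −0.69 and −0.55, so the genotypes were not close there. Rps26 encodes a protein at the exit of the mRNA channel, where it touches mRNA upstream of the start codon. It read 3153 and 3327 at day 4 and 7335 and 7404 at day 6, differences of 1.21 and 1.15. As for the brightest Rps9 probe set, the days did not overlap and the genotypes were close.

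Rps3a1, for a small-subunit protein near the binding site of the initiation factor eIF3, had intensities of 4500.0 (wt/wt) and 4225 (fl/fl) at day 4 and 8573 and 10547 at day 6. Its day difference came to 0.93 (wt/wt) and 1.32 (fl/fl), so the array of fl/fl at day 6 was the highest. Rps3, at the mRNA entry, read 2390 and 2815 at day 4 and 4311 and 5625 at day 6 (0.85 and 0.99). A second Rps3 probe set, much dimmer, had −0.40 and 0.00, so the probe sets of this gene disagreed. Rps2, the other protein listed for the mRNA entry, differed by 0.20 and 0.12, from 7604 and 8585 to 8756 and 9302. Rps4x, the X-linked gene of a small-subunit protein, went from 4907 and 6178 to 8071 and 8772, differences of 0.72 and 0.50.

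Other small-subunit genes had lower values at day 6. Rps15, for a protein of the head near the decoding centre, read 9748 (wt/wt) and 9242 (fl/fl) at day 4 and 6189 and 6790 at day 6, differences of −0.65 and −0.44. Its other probe set had −0.05 and 0.00, and so did not show the difference. Rps6, whose product is the classical substrate of the S6 kinases downstream of mTORC1, read 497 and 541 at day 4 and 386 and 424 at day 6. Both day 6 values were below both day 4 values, with differences of −0.35 and −0.34, inside 1.5-fold. Rpsa, which was first described as the laminin receptor and had the brightest probe set of the members, differed by −0.28 and −0.10. Its intensities were 20767, 18996, 17143 and 17757 (wt/wt and fl/fl at day 4, then at day 6).

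Among large-subunit genes, Rpl12 had the widest wt/wt difference of the members. Its protein forms the base of the stalk that recruits elongation factors. It read 80.4 (wt/wt) and 85.5 (fl/fl) at day 4 and 270.5 and 173 at day 6, differences of 1.57 and 0.89, on a probe set far dimmer than most of the others. The other measured stalk genes moved the same way with smaller sizes. Rplp0, the stalk protein that holds the acidic dimers, read 4974 and 5594 at day 4 and 8169 and 8511 at day 6 (0.71 and 0.60). Rplp2, for one of the acidic proteins, read 8138 and 8406, then 10755 and 11025 (0.40 and 0.39). All 3 stalk genes thus had day 6 values above day 4 values in both genotypes.

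Rpl7a, for a large-subunit protein, read 3465 (wt/wt) and 3659 (fl/fl) at day 4 and 6307 and 7447 at day 6, differences of 0.86 and 1.02. Rpl11, which with ribosomal RNA and Rpl5 can bind and inhibit MDM2, read 2830 and 3625 at day 4 and 5421 and 4656 at day 6, differences of 0.93 and 0.36. The wt/wt arrays thus spanned the fl/fl ones for Rpl11. Rpl5 was not analysed here on its own.

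Proteins of the tunnel through which the new chain leaves the ribosome had no common direction. Rpl4 read 7548 and 8824 at day 4 and 10398 and 9416 at day 6 (0.46 and 0.09). Rpl35, at the tunnel exit, read 9180 and 10240.4 at day 4 and 8833 and 8958 at day 6 (−0.06 and −0.19), and its 6 probe sets had mean day differences from −0.30 to 0.60. Rpl39, on a dim probe set, read 66.0 and 48.0 at day 4 and 66.0 and 88.5 at day 6, differences of 0.00 and 0.71.

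Rpl27a stood apart at the low end. This large-subunit gene, of which a mouse mutation gives the Sooty foot ataxia phenotype, read 686 (wt/wt) and 581 (fl/fl) at day 4 and 335 and 240.1 at day 6. Its difference was −1.22 in fl/fl and lay just inside the 2-fold line in wt/wt (−1.0), with both day 6 arrays below both day 4 arrays. This reading rests on 1 probe set with a mean level of 8.78, where the median of the core genes was 12.6. The other Rpl27a probe set read 6.71 to 14.9, below the filter. Rpl13a, whose human protein can leave the ribosome to repress translation of inflammatory mRNAs, read 15220.5 and 14155 at day 4 and 12842 and 11693 at day 6 (−0.24 and −0.28). Its other 3 probe sets lay closer to 0, at −0.09 and −0.06, −0.15 and 0.05, and −0.05 and 0.09, so that the lower reading rests on the brightest of 4. Rpl14 differed by −0.11 and −0.26 on a dim probe set with intensities of 109 to 153. Rpl41, for the shortest ribosomal protein, differed by 0.02 and 0.09 between the days on its brightest probe set and by 1.05 and 0.42 on its dimmest, and Rps29, a zinc-binding small-subunit gene that is also bright, by 0.38 and 0.14. Rps27, on a dim probe set with intensities of 23.8 to 52.7, had 0.51 and 0.79.

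The 4 members above the filter that are no core ribosomal proteins had no common direction between the days. Of these, 1 was above 0 and 2 were below 0 in both genotypes, and Rps4l had −0.32 (wt/wt) and 0.54 (fl/fl). Rpl22l1, the paralog of Rpl22, read 1246 (wt/wt) and 1052 (fl/fl) at day 4 and 2433 and 2438 at day 6, differences of 0.96 and 1.20. Rpl22 itself, whose protein is known to repress Rpl22l1 in mouse cells, had differences of 0.04 and 0.10. Its intensities lay between 7837 and 8534 on that probe set. A second bright probe set of Rpl22 had 0.07 and 0.20. A dim one had 1.01 and 1.35, so the flat reading of Rpl22 holds for its bright probe sets and not for the dim one. Rpl7l1, a nucleolar relative of Rpl7, read 217 and 232 at day 4 and 148 and 198 at day 6 (−0.51 and −0.21). A second Rpl7l1 probe set, nearly as bright, had 0.72 and 0.34, so that the direction of this gene is not settled. Rpl7 had 0.73 and 0.69.

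Rps19bp1, also named for binding the deacetylase Sirt1, read 396 and 435 at day 4 and 248 and 279 at day 6. Its differences of −0.64 and −0.61 were among the lowest of the members. Below the filter, Rpl39l, known for expression in testis, had intensities of 4.15 to 5.40, Rpl3l, known from striated muscle, 6.16 to 8.86, and Rps15a-ps6 11.2 to 20. The probe set of the core gene Rps16 that carries a single symbol read 4.23 to 4.99 on all arrays. It says little about Rps16, since probe sets shared with other symbols were not used.

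Both subunits had median day differences above 0. The 22 large-subunit genes had 0.34 in wt/wt and 0.24 in fl/fl, with 16 above 0 and 4 below 0 in both. The 20 small-subunit genes had 0.52 and 0.43, with 17 above and 3 below. The 19 proteins with a bacterial counterpart had 0.44 and 0.14, and the 23 without one 0.49 and 0.37. A list of 15 genes with mutant phenotypes in mice or people, 10 of them measured above the filter, had 0.36 and 0.32. Whether these medians differ was not tested, and the spread between genes does not measure their precision.

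The day difference varied with the brightness of the probe set. The 13 core genes at a mean level of 13 or more had medians of 0.19 (wt/wt) and 0.09 (fl/fl). The 21 between 10 and 13 had 0.62 and 0.50, with 20 of them above 0 in both genotypes, and the 8 below 10 had 0.25 and 0.04. Across the 34 core genes at 10 or more, mean level and mean day difference had a Pearson r of −0.67 and a Spearman rho of −0.75. The Pearson r was −0.45 under quantile normalization and −0.19 over 27 genes when the probe sets of a gene were averaged. These points share the same 4 arrays. Among the 369 other genes at a level of 10 or more, the median day differences were 0.23 and 0.00. The part of probe brightness in the day differences was not tested.

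Probe sets of the same gene often differed in their day differences. The members had 104 probe sets with a single symbol, 91 of them above the filter, and 66 of these had both day differences above 0. Of the 19 members with several probe sets above the filter, 11 had mean day differences that were at least 0.5 apart and 7 had opposite signs. The median range within a gene was 0.72 for the day difference and 0.30 for the genotype difference.

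Rps18, a small-subunit protein of the head, had 0.58 and 0.62 on its brightest probe set, 1.21 and 1.34 on another and −0.24 and −0.52 on a dim one. Rps9 had 0.64 and 0.10 on a second bright probe set and 1.80 and 0.97 on a dim one, so not all of its probe sets passed 2-fold, although all were above 0. Probe sets with probes that match other sequences (x_at) had a median mean day difference of 0.37 (36 probe sets), those for several transcripts of a gene (a_at) had 0.58 (26), and the 3 shared by several genes or transcripts (s_at) had 1.18. The 26 plain ones, with no such mark and mostly dim, had 0.12. Without x_at and s_at probe sets, 40 members remained, with a median of 0.55 in wt/wt.

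**Figure D3:**
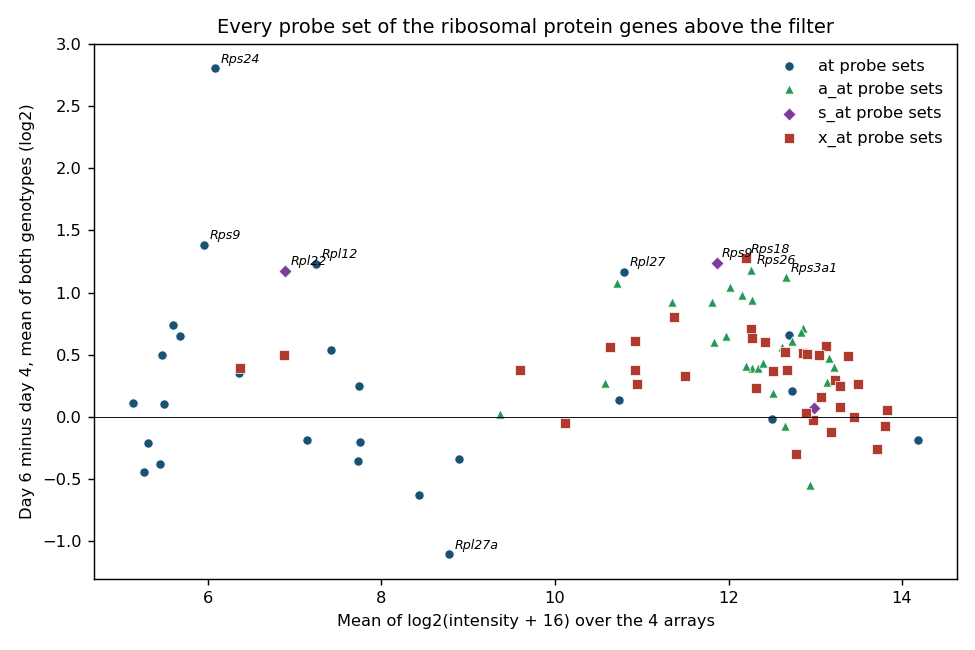
Mean of the wt/wt and fl/fl day differences (day 6 minus day 4, log2) against mean brightness for the 91 member probe sets above the filter, by kind of probe set, 1 point per probe set and no replicates. Labelled points show a gene at different heights, such as Rps9 and Rps24 with a dim probe set above the others, and the brightest probe sets lie close to 0.

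Between the genotypes, the ribosomal protein genes differed little on either day. The median of fl/fl minus wt/wt was 0.08 at day 4 and 0.08 at day 6, with interquartile ranges 0.23 and 0.18 wide. Over all genes the medians were 0.15 and 0.05, with ranges 0.48 and 0.37 wide. Quantile normalization turned the day 4 median of the members to −0.01 and left the day 6 median at 0.04. At day 4 no member reached 1.5-fold in either direction, where 11.6% of all genes were higher in fl/fl and 1.94% lower, and none reached 2-fold (1.38% and 0.105% of all genes). At day 6, Rps4l alone was higher by 2-fold (0.211% of all genes) and by 1.5-fold (3.21%). No member was 2-fold lower (0.571%), and Rpl12 alone was 1.5-fold lower (3.7%). These counts use the brightest probe set of each gene. At day 6, other probe sets of Rps9 (−0.69), Rps20 (−0.59) and, on a dim one, Rps24 (−1.25) were past 1.5-fold lower. At day 4, other and dimmer probe sets of Rpl7l1 (0.67) and Rps10 (0.60) were past 1.5-fold higher.

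Both genotype differences lay within 1.5-fold for 44 of 46 members (95.7%), against 81.0% of all genes. They were above 0 for 26 members (56.5%, against 38.0%) and below 0 for 2, Rpl13a and Rpl27a (4.35%, against 14.5%), although the other Rpl13a probe sets had mean genotype differences above 0. Under quantile normalization the count above 0 was 12 of 46, against 30.1% of all genes, so that the members then lay below all genes and not above them. No member was 1.5-fold higher or lower in fl/fl at both days, as were 0.535% and 0.123% of all genes.

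**Figure D4:**
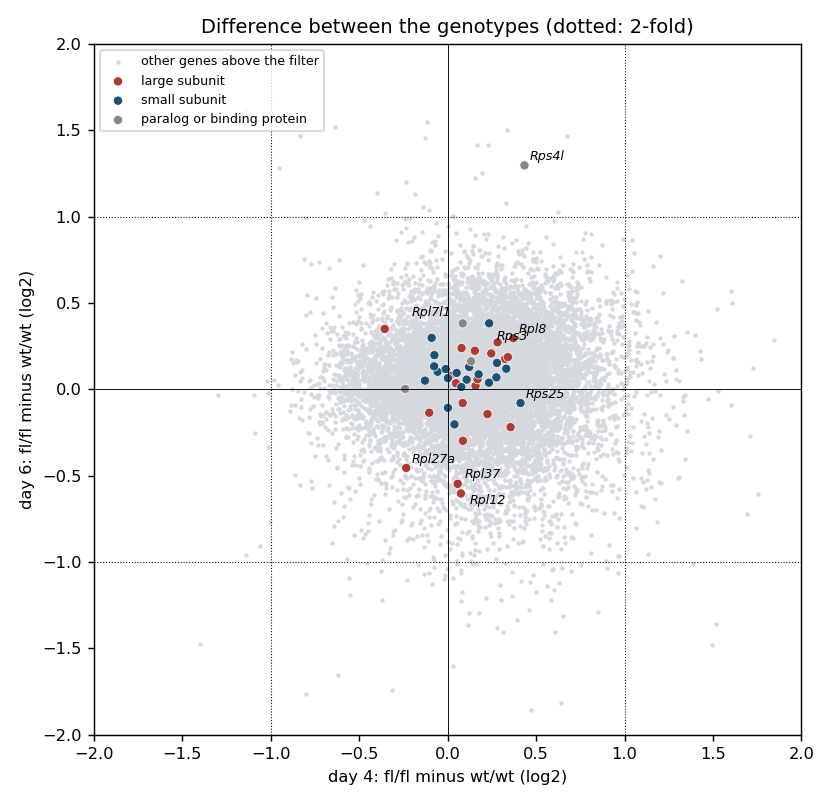
fl/fl minus wt/wt on the log2(intensity + 16) scale at day 4 (x axis) and day 6 (y axis) for the 46 members and 11344 other genes above the filter, 1 array per group, with 2 genes outside the axes not drawn. The members cluster within 0.5 of 0 on both axes, except Rps4l above and Rpl12 and Rpl37 below at day 6.

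On the brightest probe set of each gene, the largest genotype differences, in Rps4l, Rpl12 and Rpl37, were at day 6 and not at day 4. Rps4l, a mouse paralog of Rps4x, read 13.2 (wt/wt) and 23.5 (fl/fl) at day 4 and 7.34 and 41.4 at day 6, differences of 0.43 and 1.30. Both wt/wt values lay below the filter, and with a pseudocount of 64 the day 6 difference was 0.56. Rpl12 differed by 0.07 at day 4 and −0.60 at day 6, and Rpl37, for a zinc-binding large-subunit protein, by 0.06 and −0.55. Rpl37 read 651 and 678 at day 4 and 1052 and 715 at day 6, so that its wt/wt array at day 6 was the high one.

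Rpl8, whose protein reaches the peptidyl transferase centre, had values higher in fl/fl on both days. It read 3593 (wt/wt) and 4650 (fl/fl) at day 4 and 4884 and 6001 at day 6, differences of 0.37 and 0.30. Rpl6 likewise had 0.28 and 0.27, from 3900 and 4746 to 5147 and 6221. Rpl27a was the member with the lowest pair, −0.23 and −0.45. Each of these pairs has the same sign on both days, and none reached 1.5-fold.

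The difference between the genotype differences, day 6 minus day 4, had a median of −0.03 over the members and −0.09 over all genes. The lowest values were in Rpl12 (−0.68), Rpl37 (−0.60), Rpl11 (−0.57) and Rps25 (−0.49), and the highest in Rps4l (0.86), Rpl39 (0.71) and Rps3a1 (0.39). Rps25, needed for internal ribosome entry, read 154 (wt/wt) and 210.2 (fl/fl) at day 4 and 224 and 211 at day 6. In that gene the array of wt/wt at day 4 was the low one. Across the 46 members the genotype difference at day 4 and that at day 6 had a Pearson r of 0.27, across the 42 core members 0.12, and across all genes 0.02. The day differences of the genotypes had 0.85 across the same members and 0.80 across all genes.

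An additive model over all 11392 genes, with terms for genotype and day fitted in limma with Benjamini-Hochberg adjustment, left 1 residual degree of freedom and takes the genotypes as repeats of a day. By day, 3412 genes (30%) had an adjusted p under 0.05 and 5058 (44.4%) an unadjusted one. Among the members 11 passed the adjusted threshold, 9 of them higher at day 6 and 2 lower, and 21 passed unadjusted. Their share was near that of all genes. Rps9, Rps26 and Rpl27a ranked first among the members in this fit, with mean day differences of 1.24, 1.18 and −1.11. The fit favours genes whose genotypes agree, so that their same direction in both genotypes adds nothing to the ranking.

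By genotype no gene passed the adjusted limma threshold (0%), and 609 genes (5.35%) and 1 member passed unadjusted. The smallest adjusted p of a member was 0.784.

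Other genes of the pathway were read from lists chosen by role. Fau, whose product carries a ribosomal protein fused to a ubiquitin-like one and whose name falls outside the rule, read 9850 (wt/wt) and 10390 (fl/fl) at day 4 and 7074 and 9107 at day 6, differences of −0.48 and −0.19. Elongation factors and other genes with TOP mRNAs had medians of 0.62 and 0.44 (17 genes). Of these 17, 6 were at least 1.5-fold higher at day 6 in both genotypes and 1 lower, against 20.4% and 5.87% of all genes. Btf3 and Naca, subunits of the nascent chain-associated complex, had 1.52 and 1.94, and 1.30 and 1.20. Eif3m, an initiation factor subunit on that list, had 1.46 and 1.18.

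The 46 ribosome biogenesis genes had medians of 0.40 and 0.15, with 11 at least 1.5-fold higher and 3 lower in both genotypes, near the 20.4% and 5.87% of all genes. Npm1, a nucleolar chaperone, had 1.44 and 1.5, Rrs1, an assembly factor, 1.70 and 1.44, and Rrp1b −1.78 and −1.41. Unlike the members, the biogenesis genes had a day 4 genotype median of 0.31, above the 0.15 of all genes, and 0.10 at day 6. The 23 initiation factors had day medians of 0.37 and 0.23, with 7 higher by 1.5-fold in both and none lower (20.4% and 5.87% of all genes), and genotype medians of 0.30 and 0.20. Eif4a2, a helicase, had the widest day differences of those named, 2.64 and 2.05. Eif4e, which binds the mRNA cap, had 1.41 and 1.49, and Eif5a 1.48 and 1.11.

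The 13 genes of mTORC1 and TOP mRNA control had medians of 0.13 and 0.01, with 2 higher and 1 lower by 1.5-fold in both, against 20.4% and 5.87% of all genes. Rheb, the activator of mTORC1, had 1.90 and 1.96, and Rptor, the scaffold of the complex, −0.74 and −0.61. Myc, included in that list, read 75.7 (wt/wt) and 182 (fl/fl) at day 4 and 470.4 and 424 at day 6, lowest in wt/wt at day 4. Its day differences were 2.41 and 1.16, and its genotype differences 1.11 and −0.14. The day medians of the biogenesis, elongation and initiation lists thus lay above those of all genes, as the members' did, with wider spreads.

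**Figure D5:**
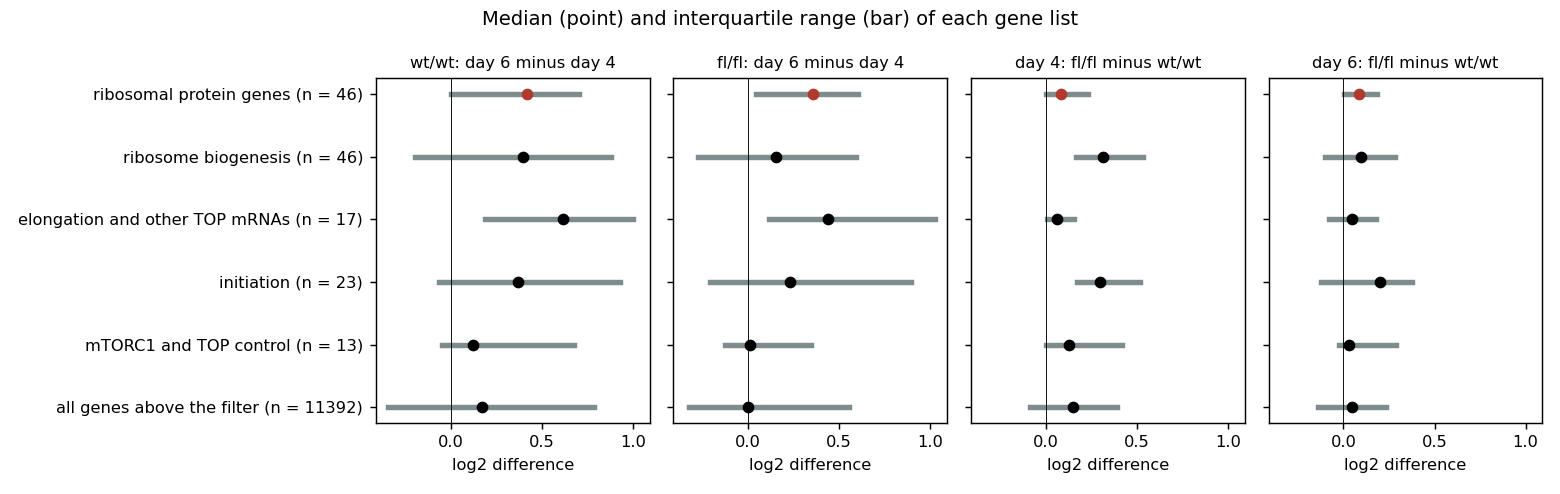
Median (point) and interquartile range (bar) of the log2 difference over the genes of each list above the filter, for the day differences in wt/wt and fl/fl and the genotype differences at day 4 and day 6. The ribosomal protein genes have a narrower bar than all genes in each panel, and at day 4 the biogenesis and initiation lists lie to the right of the ribosomal protein genes between genotypes.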

How the data were processed

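The deposited values are 1 linear intensity per probe set and array, as the values show. Their summarisation, background correction and scaling are not stated in the labels, and the tool is not given in the sources used here. The number of arrays limits the precision. Groups came from the sample titles. Intensities were taken as log2(intensity + 16) without further scaling. Symbols came from the platform annotation (34958 of 45101 probe sets have 1 symbol, 932 several, 9211 are not listed) and were updated with RefSeq GRCm38.p6, which matched 34754 and all 104 probe sets of the members. Of 77 core ribosomal proteins listed, 34 had no probe set of 1 symbol and were not analysed on their own. The filter was the median level of all probe sets.

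The members named are the 6 highest and 6 lowest by mean day difference, the 4 highest and 4 lowest by mean genotype difference, by difference of genotype differences and by mean level, and the listed role groups. In each other list the 3 genes with the largest mean day difference are named. Rpl7, Rpl22, Rpl38, Rps10, Rps16, Rps18, Rps20 and Rps24, and further probe sets of named genes, were chosen after their values were seen. Members and lists were chosen with earlier results of these data known. The additive model used limma 3.58.1 in R 4.3.3, tested on simulated data. Pseudocounts of 1 and 64, median centring, quantile normalization, averaging of probe sets, removal of x_at and s_at probe sets, no filter and core members only were tried as alternatives.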

Additional observations from a re-analysis of the deposited data

How the results depend on the processing

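Of 190 pairs of a summary value and an alternative setting, 158 were unchanged (medians within 0.1, counts within 1.5 times). Quantile normalization turned the members' day 4 genotype median from 0.08 to −0.01 and lowered the members above 0 in both genotype differences from 26 to 12. Of 964 pairs of a named gene's difference and a setting, 929 stayed on the same side of 1.5-fold. No difference past 1.5-fold changed sign, but 33 pairs of smaller differences did, 17 of them under quantile normalization and 9 with averaged probe sets, where Rpl7l1 went from −0.51 to 0.01 in wt/wt. With a pseudocount of 1, the members 2-fold lower at day 6 in wt/wt numbered 1 (0 as reported), and those 1.5-fold higher in fl/fl at day 4 numbered 1 (0). With 64, the members 1.5-fold lower at day 6 in fl/fl numbered 1 (2), and at day 6 no member (0) was 2-fold higher, 1.5-fold higher or 1.5-fold lower in fl/fl than in wt/wt. With centred arrays, 6 members were 2-fold higher at day 6 in wt/wt (3), 1 was 1.5-fold lower there (3) and 1 in fl/fl (2), and 0 were 1.5-fold lower in fl/fl at day 6. Quantile normalization gave day medians of 0.18 and 0.20, 1 member 2-fold higher and 2 lower in wt/wt, 5 and 5 at 1.5-fold, 2 at 2-fold higher in fl/fl (5), 8 and 4 at 1.5-fold (13 and 2), and 2 that were 1.5-fold lower in fl/fl at day 6 (1). Averaged probe sets left 0 members 2-fold lower in fl/fl (1). Without x_at and s_at probe sets the wt/wt median was 0.55, 6 members were 2-fold higher in wt/wt, and at day 6 1 was 2-fold and 2 were 1.5-fold lower in fl/fl. Core members alone gave 1 that was 1.5-fold lower at day 6 in fl/fl, and 0 higher in fl/fl at day 6 at either size. The additive limma fit called 11 members by day, against 2 that were past 2-fold in both genotypes. The causes were not tested. The 102 probe sets of several symbols that include a member, an alternative added after seeing the data, had day medians of 0.31 and 0.20. Those of the members were higher, at 0.42 and 0.36.

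No paired analysis was possible because no replicate numbers join the arrays, each group having 1. The additive fit compares the days with genotype as a term. Leaving out an array leaves no comparison for its group, so none was run. Dim probe sets have differences that depend on the pseudocount.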

Other observations

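A dim Rps24 probe set, chosen after its values were seen, had the widest day difference among all probe sets of the members. It read 6.96 (wt/wt) and 12.8 (fl/fl) at day 4 and 261 and 101 at day 6, differences of 3.59 and 2.02. Both day 6 arrays lay above both day 4 arrays, but both day 4 values were below the filter on dim genes. The probe set passed that filter by its mean level, through its day 6 values. The brightest Rps24 probe set had 0.19 and 0.32, and another dim one −0.58 and −0.31. Rps24 is a small-subunit gene known for alternative splicing of its last exons, which differ between tissues. Which transcript each probe set reads was not tested.

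Of 77 core ribosomal proteins listed, 27 of the 34 without a probe set of a single symbol appear in probe sets shared by several symbols. The 102 shared probe sets above the filter had medians of 0.31 and 0.20 between the days and of 0.09 and 0.03 between the genotypes. The members had 0.42 and 0.36 between the days and 0.08 and 0.08 between the genotypes. All genes above the filter had 0.17 and 0.00, and 0.15 and 0.05.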
